A study of Mus musculus with 2 samples.

Results

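The genes described here encode the non-collagen matrix of the dermis, that is, elastic fibre proteins, proteoglycans and matrix glycoproteins. They were chosen by name for their function, as a list of 39 genes, with earlier results of these data known. They were found on the array through the gene symbols of its probe sets. Of these, 37 were measured, by 79 probe sets, out of 18194 genes with a symbol. Loxl2 was left out because its probe sets also carried the symbol of another gene, and Fbn1 was not analysed here. The study set the bulge of the mouse hair follicle against the hairshaft, 2 structures that were each cut by laser from frozen, eosin-stained skin of C57Bl6 mice aged 21 days. The number and sex of the animals are not stated in the labels. There was 1 array for each structure, so no value has a replicate error, no test was possible, and every difference below describes these 2 arrays only.

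Elastic fibres give skin its recoil. Their core of elastin is laid down on a scaffold of fibrillin microfibrils with the help of fibulins and is crosslinked by lysyl oxidases. Small leucine-rich proteoglycans bind collagen fibrils and set their spacing, matricellular glycoproteins modulate how cells attach to the matrix, and nidogens and perlecan link the networks of the basement membrane. Fibroblasts of the dermis and of the sheath around the follicle make most of these proteins, and the muscle that raises the hair is anchored at the bulge.

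Values are log2 expression values as the authors deposited them, computed with GCRMA (a method that corrects each probe's background from its sequence), and differences are bulge minus hairshaft. A value was called above background when it exceeded 2.68 on its array, a floor set from probe sets for olfactory and vomeronasal receptors. A value at or below this floor was replaced by it when the other array was above, and such folds are given as "at least". Levels of different genes are not compared, because each probe set has its own brightness per transcript.

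The labelled structures were checked against marker genes first. As a measure for the counts below, 11.4% of all 13329 genes above the floor were higher in the bulge by 2-fold or more. In the hairshaft 4.91% were, and most genes (11148) were under 2-fold apart. Of 10 bulge stem cell markers, 8 were higher in the bulge array by 2-fold or more, led by the transcription factors Lhx2 (23.6-fold) and Foxc1 (14.3-fold). Of 12 genes of the hair shaft, 9 were also higher in the bulge array by 2-fold or more, and none in the hairshaft array, so the array labelled hairshaft went against its label for these genes; below, bulge and hairshaft mean the arrays so labelled. In the hairshaft array 6 of the 12 were above the floor; Krtap8-1 and Krt33a, at 8.80 and 7.07 in the bulge, were at 2.40 and 2.44. Genes of some other tissues were brighter in the bulge array. All 15 skeletal muscle markers were higher there by 2-fold or more, with a summed linear signal of 237000 against 124, and 9 of them were above the floor on the hairshaft array, all but Tnnc2, Myh1, Myl1, Ttn, Atp2a1 and Actn3. So were all 10 measured fat cell markers (63400 against 284; 5 above the floor on the hairshaft array, all but Adipoq, Cidec, Lep, Retn and Pparg), 11 of 12 endothelial markers (1680 against 224; 9 above the floor on the hairshaft array, all but Pecam1, Cdh5 and Kdr) and 9 of 12 smooth muscle and pericyte markers (8720 against 2060). Keratinocyte markers were alike in sum (152000 against 154000; none of 11 was 2-fold apart), and so were macrophage markers (6740 against 6850; none of 12 was 2-fold apart, Cd163 being 1.98-fold higher in the bulge and Csf1r 1.97-fold higher in the hairshaft). Several keratinocyte markers were very bright, such as Krt10 at 15.33 and 15.36, and signals this strong can be compressed. Each summed signal is led by the brightest probe sets of its list and is compared only between the arrays. Of 8 measured Schwann cell markers, 7 were above the floor on both arrays and 3 were higher in the bulge by 2-fold or more (4000 against 2570), led by Cdh19 (7.65-fold). On the other side, Mbp was 1.95-fold higher in the hairshaft by its brightest probe set, although 6 of its 8 probe sets were higher in the bulge. Ngfr was 1.12-fold higher in the hairshaft. The part of these tissues in the differences of the matrix genes was not tested. In bulk material such as this, fewer cells of a type and less RNA per cell cannot be told apart.

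The matrix genes divided in both directions. Of 36 above the floor on at least 1 array, 8 were higher in the bulge by 2-fold or more (22.2%, against 11.4% of all 13329 genes above the floor) and 7 were higher in the hairshaft by 2-fold or more (19.4%, against 4.91% of all genes). The other 21 were under 2-fold apart. The bulge-higher genes were Fmod, Ogn, Nid2, Mfap5, Dpt, Postn, Loxl1 and Tnxb. The hairshaft-higher genes were Eln, Mfap4, Lox, Sparc, Mfap2, Tnc and Vcan. The median difference over the 36 genes was 0.20 beside 0.00 over all genes above the floor, and the median size of the difference, regardless of direction, was 0.80 beside 0.34. Only Fmod and Ogn were at least 8-fold apart, both higher in the bulge (3.02% of all genes were), and no member was 8-fold higher in the hairshaft (0.188% of all genes were).

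**Figure D1:**
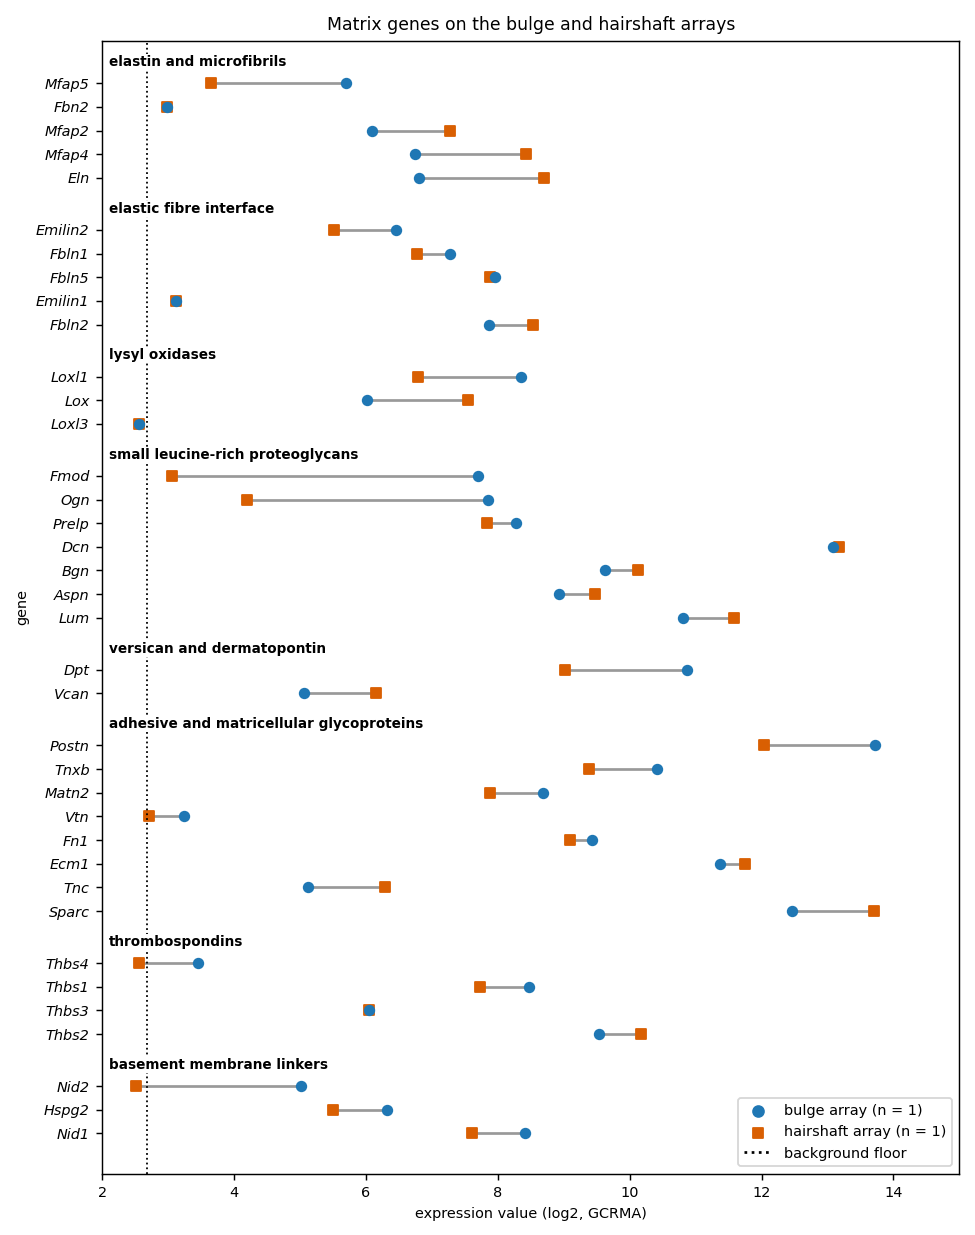
Values of the 37 measured matrix genes on the bulge array (circles) and the hairshaft array (squares), in log2 GCRMA units, grouped by role and ordered within each role by difference; the dotted line is the background floor of 2.68 and each point is 1 array. Fmod and Ogn have the longest gaps, with the bulge higher, while Eln, Mfap4 and Mfap2 lie the other way; values of different genes are not comparable with each other.

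**Figure D2:**
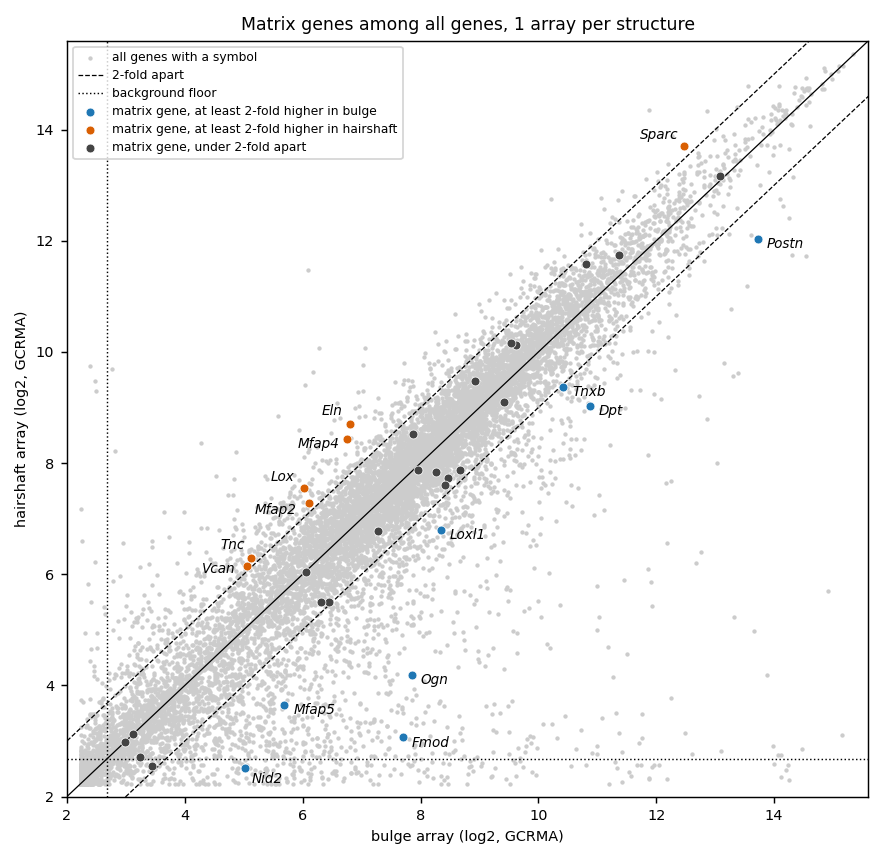
Each grey point is 1 of 18194 genes, with its bulge value on the horizontal and its hairshaft value on the vertical axis (log2 GCRMA, 1 array each); matrix genes are coloured by direction. The 8 matrix genes on the bulge side lie below the lower dashed line and the 7 on the hairshaft side lie above the upper one.

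Upstream sequences are shown for the genes furthest apart in each direction that had a single start window in the RefSeq promoter table (build GRCm38.p6), which held windows for 25 of the 39 genes. They are Fmod, Ogn and Dpt, higher in the bulge, and Sparc and Vcan, higher in the hairshaft. Each is the 250 bases before the annotated start, 5′ to 3′ on the gene's strand. Capitals mark matches, on either strand, to the TATA box (TATAAA), the CCAAT box (CCAAT), the GC box (GGGCGG) and the AP-1 motif (TGANTCA).
Fmod, chr1:134037004-134037253, plus strand: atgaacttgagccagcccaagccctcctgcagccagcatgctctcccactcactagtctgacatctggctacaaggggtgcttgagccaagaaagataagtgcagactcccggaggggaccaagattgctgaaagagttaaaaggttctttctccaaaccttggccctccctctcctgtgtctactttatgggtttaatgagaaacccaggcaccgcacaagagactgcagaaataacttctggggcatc
Ogn, chr13:49607765-49608014, plus strand: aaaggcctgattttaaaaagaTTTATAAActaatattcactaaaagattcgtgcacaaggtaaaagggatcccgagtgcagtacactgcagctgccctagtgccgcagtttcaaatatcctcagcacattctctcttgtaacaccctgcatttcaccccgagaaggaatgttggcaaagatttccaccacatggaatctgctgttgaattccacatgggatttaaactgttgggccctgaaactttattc
Dpt, chr1:164796413-164796662, plus strand: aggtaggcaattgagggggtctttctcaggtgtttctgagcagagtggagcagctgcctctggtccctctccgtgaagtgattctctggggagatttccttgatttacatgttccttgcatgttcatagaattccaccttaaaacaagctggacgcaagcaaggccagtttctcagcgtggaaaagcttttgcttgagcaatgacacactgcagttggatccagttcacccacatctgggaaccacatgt
Sparc, chr11:55420081-55420330, minus strand: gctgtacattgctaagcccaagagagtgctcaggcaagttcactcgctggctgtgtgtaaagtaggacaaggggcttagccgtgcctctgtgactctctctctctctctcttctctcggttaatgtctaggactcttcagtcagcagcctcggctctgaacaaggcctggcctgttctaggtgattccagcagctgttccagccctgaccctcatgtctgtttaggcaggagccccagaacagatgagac
Vcan, chr13:89742513-89742762, minus strand: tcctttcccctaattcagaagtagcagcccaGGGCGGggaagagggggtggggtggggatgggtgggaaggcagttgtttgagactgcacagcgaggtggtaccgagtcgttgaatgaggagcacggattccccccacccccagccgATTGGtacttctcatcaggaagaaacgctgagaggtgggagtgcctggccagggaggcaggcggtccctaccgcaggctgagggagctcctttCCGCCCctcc
Fmod, Dpt and Sparc held none of the 4 motifs in this window. Ogn held overlapping forward and reverse matches to TATAAA, the nearer to the start beginning 227 bases before it. Vcan held a CCAAT box in reverse, beginning 103 bases before the start, and GC boxes beginning 219 and 10 bases before it. Over all 31 windows of the listed genes, 8 (25.8%) held TATAAA, 8 (25.8%) CCAAT, 15 (48.4%) GGGCGG and 2 (6.45%) the AP-1 motif. Among all 32851 windows of the same length the shares were 12.4%, 33.8%, 32.7% and 6.75%. A match describes letters only, and the array data do not bear on binding.

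Of 5 measured elastin and microfibril genes, 3 were higher in the hairshaft array by 2-fold or more (60.0%, against 4.91% of all genes). In the bulge array 1 was (20.0%, against 11.4% of all genes). Elastin itself (Eln), the rubber-like core of the fibre, was 6.81 in the bulge against 8.70 in the hairshaft, 3.71-fold higher in the hairshaft. Its second probe set gave nearly the same difference (3.17 and 4.97, a difference of -1.80 beside -1.89). Mfap4, a microfibril-associated glycoprotein that binds elastin, was 6.75 in the bulge against 8.43 in the hairshaft (3.22-fold). Mfap2, which binds fibrillin in the microfibril, was 6.10 and 7.28 (2.27-fold), with its second probe set at -1.12 beside -1.18. All 3 were on the hairshaft side by over 2-fold under each of the 10 alternative settings. Of these settings, removing the median difference changed no member's value, and averaging probe sets could not change Mfap4, which had 1.

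Mfap5, the relative of Mfap2 in the same microfibrils, lay the other way. It was 5.69 in the bulge against 3.65 in the hairshaft, a 4.11-fold difference. Its dimmer probe set (3.39 and 3.03) differed by only 0.36, and with the mean of both probe sets the difference was 1.20, with an offset of 16 added to the linear signal 1.24. The pair Mfap2 and Mfap5 was therefore higher on opposite arrays by each gene's brighter probe set, and by its dimmer one too. Fbn2, a fibrillin known chiefly from development, was 2.98 on both arrays.

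None of the 5 genes of the elastic fibre surface was at least 2-fold apart, and neither were 11148 of all 13329 genes above the floor. Emilin2, a glycoprotein of the fibre's interface with the microfibrils, was the furthest to the bulge side, at 6.45 against 5.51 (1.92-fold). Fibulin-2 (Fbln2) was the furthest to the hairshaft side, at 7.87 against 8.53 (1.58-fold). Fibulin-5 (Fbln5), which carries elastin onto microfibrils, was 7.96 and 7.87. Fibulin-1 (Fbln1) was 7.27 and 6.78, and its second informative probe set also lay to the bulge side (7.22 and 6.40). Emilin1 was 3.12 on both arrays.

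Fbn2 and Emilin1 were equal on both arrays to every deposited digit, as were 17293 of all 45101 probe sets (38.3%). Of these, 14004 lay at or below the floor, but equal values were also found at higher levels, for example Ltbp1, a gene of latent TGF-beta binding, at 7.77 on both arrays. Values shared to every digit do not show that Fbn2 and Emilin1 were equally expressed.

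The lysyl oxidases, which crosslink elastin and collagen, divided as well. Lox was 6.01 in the bulge against 7.55 in the hairshaft, 2.90-fold higher in the hairshaft. Loxl1, the family member most closely tied to elastic fibres, was 8.35 and 6.79, 2.95-fold higher in the bulge. Loxl3 was 2.56 on both arrays, below the floor. The size of both differences rested on the brightest probe set. A second Lox probe set (5.06 and 5.44) differed by -0.38, and with the mean of all probe sets, those at background included, Lox was at -0.64 and Loxl1 at 0.78, both under 2-fold.

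Among the small leucine-rich proteoglycans 2 of 7 were higher in the bulge by 2-fold or more (28.6%, against 11.4% of all genes). The other 5 were under 2-fold apart. Fibromodulin (Fmod), which binds collagen fibrils and guides their crosslinking, was 7.70 in the bulge against 3.06 in the hairshaft, a 24.9-fold difference. Osteoglycin (Ogn), also called mimecan, was 7.85 and 4.19 (12.6-fold), and its second probe set 7.07 and 4.66. All 6 Fmod probe sets were higher in the bulge, but by 0.10 to 4.64, and the value given came from a probe set of a type that can bind related sequences. The probe set without that mark gave 6.40 and 3.65, a difference of 2.75, and the mean of all 6 gave 1.87. With the offset the differences were 3.20 for Fmod and 2.85 for Ogn, with the mean of probe sets that of Ogn was 3.03, and with a stricter floor, the 99th percentile of the receptors, that of Fmod was 3.49.

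The other members of this family were closer to level. Decorin (Dcn), the main proteoglycan of dermal collagen fibrils, was 13.08 in the bulge against 13.17 in the hairshaft (1.06-fold). Signals this strong can be compressed. Its sign turned, to 0.06, when the trend of difference against level was removed. Lumican (Lum), which regulates fibril diameter, was 10.81 and 11.58 (1.71-fold higher in the hairshaft). Biglycan (Bgn), the close relative of decorin, was 9.63 and 10.13, and its 3 probe sets were all on the hairshaft side (-0.57 to -0.28). Asporin (Aspn) was 8.93 and 9.47, with probe sets at -0.55 and -0.58. Prelp, which links basement membrane to the collagen beneath, was 8.27 and 7.83, a little higher in the bulge on both probe sets (0.44 and 0.51). Fmod and Ogn thus stood well away from the other 5, which spanned -0.77 to 0.44.

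Versican and dermatopontin were on opposite sides. Versican (Vcan), a large hyaluronan-binding proteoglycan and a known product of the dermal papilla, was 5.05 in the bulge against 6.15 in the hairshaft (2.13-fold). A second probe set above the floor on both arrays gave -1.82, and another was 2.48, below the floor, in the bulge against 3.15 in the hairshaft. The difference was under 2-fold with the offset (-0.82) and with the mean of all 8 probe sets (-0.45), 5 of which were equal on both arrays. Dermatopontin (Dpt), a small protein that binds decorin and collagen, was 10.88 and 9.02 from its single probe set, 3.62-fold higher in the bulge. Its difference lay between 1.82 and 1.93 under every setting tried, but averaging could not change a single probe set.

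**Figure D3:**
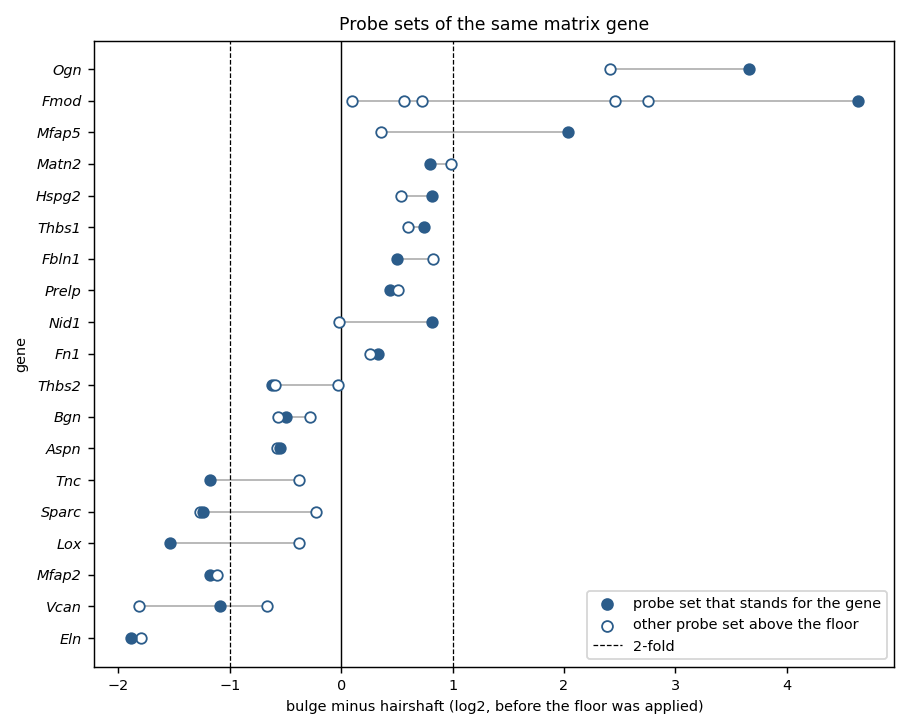
Difference (bulge minus hairshaft, log2) of each probe set above the floor, for the genes with more than 1; filled points are the probe sets that stand for the gene and dashed lines mark 2-fold. Probe sets of Eln, Mfap2, Aspn and Prelp lie close together, those of Fmod spread from 0.10 to 4.64, and those of Nid1 lie on both sides of 0.

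Of the 8 adhesive and matricellular glycoproteins, 2 were higher in the bulge by 2-fold or more (25.0%, against 11.4% of all genes). In the hairshaft 2 were (25.0%, against 4.91% of all genes). The median difference of the 8 was 0.43. Periostin (Postn), which supports collagen fibril assembly and crosslinking, was 13.72 in the bulge against 12.03 in the hairshaft, 3.23-fold higher in the bulge. Tenascin-X (Tnxb), a glycoprotein that keeps collagen fibrils in register, was 10.42 and 9.38 (2.06-fold). Both had 1 probe set, which averaging cannot change, and stayed over 2-fold under every setting. On the other side, Sparc, a collagen-binding protein also called osteonectin, was 12.46 and 13.70, 2.36-fold higher in the hairshaft. Its second bright probe set gave 11.99 and 13.26, while the remaining, dim one (3.15 and 3.37) brought the mean of all 3 to -0.91. Tenascin-C (Tnc), a de-adhesive glycoprotein of growing and healing tissue, was 5.12 and 6.30 (2.26-fold higher in the hairshaft), but under 2-fold with the offset (-0.90) and the mean of its probe sets (-0.78).

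The remaining glycoproteins were under 2-fold apart. Fibronectin (Fn1), the main cell-binding protein of provisional matrix, was 9.42 and 9.10. Matrilin-2 (Matn2), an adaptor protein of filamentous networks, was 8.68 and 7.88 (1.73-fold higher in the bulge), and its second probe set gave 7.56 and 6.58. Ecm1, a secreted protein made by keratinocytes as well as by dermal cells, was 11.37 and 11.74. Vitronectin (Vtn), a plasma adhesion protein, was barely above the floor, at 3.24 and 2.71. None of the 4 thrombospondins was 2-fold apart either, and most genes (11148 of 13329 above the floor) were not. Thbs1 was 8.47 and 7.72 (1.68-fold higher in the bulge), Thbs2 was 9.54 and 10.16 (1.54-fold higher in the hairshaft), and Thbs3 was 6.05 and 6.04. Thbs4 was 3.45 in the bulge and at 2.55, below the floor, in the hairshaft (at least 1.71-fold). Thbs1 and Thbs2, both inhibitors of vessel growth, were thus on opposite sides, although another Thbs2 probe set differed by only -0.03.

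All 3 genes that link the basement membrane had higher values in the bulge by their brightest probe set. In 1 of them the difference was over 2-fold (33.3%, against 11.4% of all genes). Nid2 (nidogen-2) was 5.01 in the bulge against 2.51, below the floor, in the hairshaft, at least 5.05-fold higher. Its only probe set can detect more than 1 transcript of the gene. The difference was 1.11 with the offset, 1.54 with a floor at the array median and 0.80, under 2-fold, with the floor at the 99th percentile. Perlecan (Hspg2), a heparan sulphate proteoglycan, was 6.31 and 5.49 (1.76-fold), and its second probe set gave 5.93 and 5.39. Nid1 (nidogen-1) was 8.42 and 7.61 (1.76-fold), but its second probe set was level (5.06 and 5.08). Vessel walls, fat cells and muscle fibres have basement membranes of their own, and their markers were higher in the same array, as given above. The endothelial genes Aplnr and Pecam1, for instance, were 8.48 and 7.83 in the bulge and 2.76 and 2.56 in the hairshaft. Whether these tissues had a part in the values of the 3 genes was not tested.

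Probe sets of the same gene are the only repeat measurement in these data. For 19 members at least 2 probe sets above the floor on at least 1 array had unequal values on the arrays, and in 18 of the 19 every such probe set pointed the same way, Nid1 being the exception. They come from the same RNA and array, so they speak to the probes and not to the spread between animals.

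Beside collagen and fibroblast genes, the matrix genes were neither wholly on one side nor the other. Of 12 chains of fibrillar and associated collagens, 6 were on the hairshaft side by 2-fold or more (against 4.91% of all genes) and 1, Col5a3, on the bulge side (against 11.4%), with a median of -0.93. Col1a1, the main chain of dermal collagen, was 11.87 in the bulge against 14.36 in the hairshaft, and Col5a1 was 8.05 and 9.91. Eln, Mfap4, Lox and Sparc were higher in the same array as these chains. Of 13 measured fibroblast markers outside the matrix, 3 were higher in the bulge by 2-fold or more (23.1%, against 11.4% of all genes). In the hairshaft 1 was higher by 2-fold or more (7.69%, against 4.91% of all genes). Their median was 0.32, and their summed linear signal, led by the brightest probe sets, was 8940 against 7300. The bulge-higher ones were Pi16, a gene of fascial and adventitial fibroblasts, at 8.84 and 5.63, Prrx1, a mesenchymal transcription factor, at 9.25 and 7.57, and Serpinf1; the hairshaft-higher one was Twist2. All 13 were above the floor on both arrays.

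**Figure D4:**
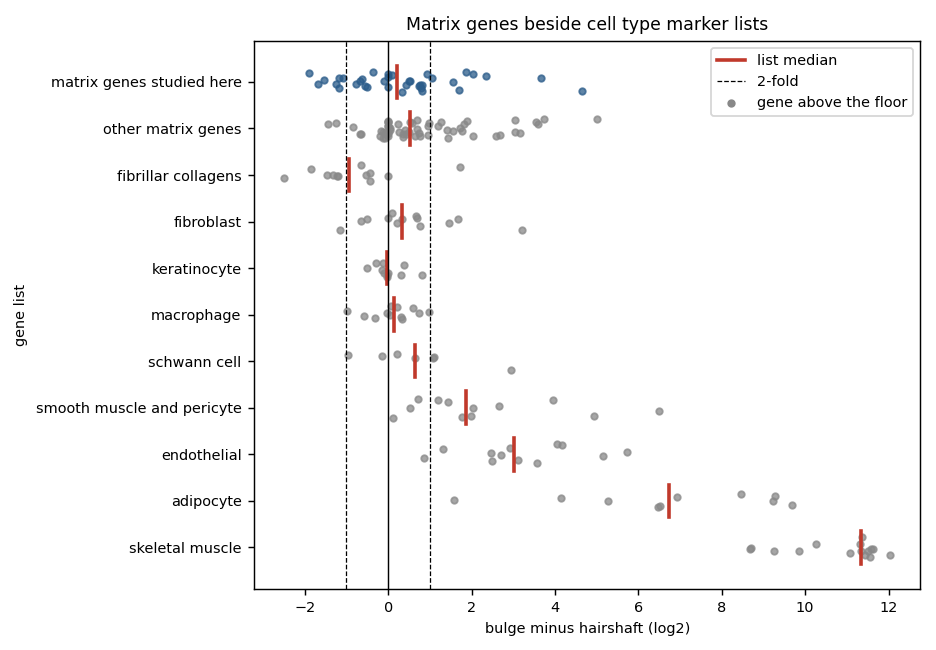
Difference (bulge minus hairshaft, log2) of each gene above the floor in the matrix genes (blue) and in the comparison lists (grey); red bars are list medians, dashed lines mark 2-fold, and vertical jitter has no meaning. The matrix genes lie on both sides of 0 with a median of 0.20, the collagens lie mostly to the left, and the muscle, fat and vessel lists lie far to the right.

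Other genes of the same matrix families came from a longer list. Of 77 measured, 58 were above the floor, of which 19 were higher in the bulge by 2-fold or more (32.8%, against 11.4% of all genes) and 2 in the hairshaft (3.45%, near the 4.91% of all genes). The median was 0.51, and ran from 0.04 with no floor to 0.80 with the floor at the 99th percentile. The largest difference was in Mgp, matrix Gla protein, an inhibitor of calcification made by vessel walls and cartilage, at 7.69 in the bulge against 2.65, below the floor, in the hairshaft (at least 32.4-fold). Adamtsl4, which associates with fibrillin microfibrils, was 8.46 and 4.73 (13.2-fold). Smoc1, a relative of Sparc in basement membranes, was 6.49 and 2.89 (12.1-fold), and Tinagl1, another basement membrane protein, was 7.41 and 3.87 (11.7-fold). Ltbp2, a microfibril-bound protein of the latent TGF-beta binding family, was 5.84 in the bulge against 2.55, below the floor, in the hairshaft (at least 8.98-fold). Cilp, a cartilage and tendon matrix protein, was 9.80 and 6.74 (8.30-fold).

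Those 2 higher in the hairshaft were Comp, the cartilage thrombospondin, at 3.65 in the bulge against 5.10 in the hairshaft (2.73-fold), and the cell surface proteoglycan Sdc4, at 10.88 and 12.14 (2.40-fold), whose second probe set had the opposite direction. The next on that side were under 2-fold apart, leaving aside Sdc1 (1.14-fold), whose probe set is of a type that can bind related sequences. They were Mfap3 (1.81-fold), Pcolce, which enhances the trimming of collagen precursors (1.59-fold), Mfap3l (1.57-fold) and Tgfbi, a keratinocyte and fibroblast adhesion protein (1.13-fold).

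**Figure D5:**
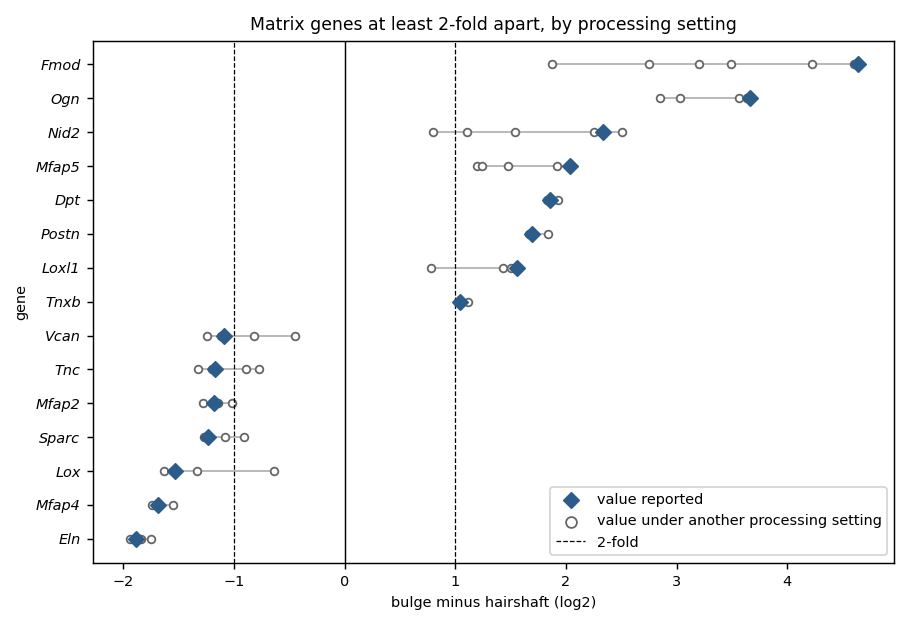
Difference (bulge minus hairshaft, log2) of the 15 matrix genes at least 2-fold apart, as reported (diamonds) and under the other processing settings (circles); dashed lines mark 2-fold. No gene crosses 0, Eln, Mfap4, Dpt, Postn and Tnxb hardly move, and Fmod and Nid2 move the most. Mfap4, Dpt, Postn and Tnxb have 1 probe set each, which averaging probe sets cannot change.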

How the data were processed

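The authors deposited log2 probe-set values of 2 arrays, 1 per structure, made from 30 ng of total RNA each, which was amplified, per the labels' protocols. They used GCRMA, per the submitters' processing notes; no version or settings were given in the sources used here. GCRMA models background from probe sequence and normalizes arrays together. Values ran from 2.23 to 15.36 and sorted columns differed by at most 0.19, so nothing was rescaled. Of 45101 probe sets, 34958 had 1 gene symbol, 34754 of them updated through Entrez identifiers to RefSeq names (GRCm38.p6). The brightest probe set (mean of the arrays) stood for its gene. The floor was the 95th percentile of 80 receptor probe sets. Counts use a 2-fold limit; with 0 residual degrees of freedom no test was run. The counting was tested on simulated data.

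The members and lists were chosen with earlier results of these data known. The genes named are all members, the 6 other matrix genes furthest apart in each direction, and up to 2 per marker list. Probe sets ending in _x_at were passed over in that choice for non-members. Markers at or below the floor, Krt10, Mbp, Ngfr, Serpinf1, Twist2, Col5a3, Sdc1 and Ltbp1 were named after their values were seen. So were the genes named from the lists on collagen and elastin modification and on sugar chains. There were 10 alternative settings, 1 of them added after seeing the data. With 1 array per structure, the number of arrays limits the precision. Software was matplotlib 3.10.9, statsmodels 0.14.6, numpy 2.4.6 and pandas 2.3.3 under Python 3.11.15.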

Additional observations from a re-analysis of the deposited data

How the results depend on the processing

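The 10 alternatives were a floor at the receptors' 99th percentile, a floor at the array median, or none; averaging a gene's probe sets, or using only those without _a_at, _s_at or _x_at; adding 16 to the linear signal; loess, median or quantile normalization; and, chosen after seeing the data, dropping probe sets equal on both arrays. Median normalization changed no member's value. No member at least 2-fold apart reversed. Of these 15, 9 stayed at least 2-fold apart in every setting that measured them, and 6 (Lox, Sparc, Tnc, Vcan, Loxl1 and Nid2) did not in at least 1. Of the 9, Mfap4, Dpt, Postn and Tnxb had 1 probe set each, so averaging or choosing among probe sets could not change them. The count higher in the bulge was 7 or 8 throughout. The count higher in the hairshaft was 3 with the mean of probe sets, since averaging brings in dim probe sets, and 5 or 7 otherwise. The members' median ranged from 0.08 to 0.38. No paired analysis was possible because each structure has 1 array, and leaving out a replicate was not possible either.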

Other observations

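Genes of collagen and elastin modification, a list chosen after the data were seen, lay mostly to the hairshaft side. Of 17 measured, 14 were above the floor, 3 of them higher in the hairshaft by 2-fold or more (21.4%, against 4.91% of all genes) and none in the bulge (against 11.4%), with a median of -0.62. Plod3 (1.34-fold), Bmp1 (1.27-fold) and Plod2 (1.19-fold) lay to the bulge side. The prolyl hydroxylase subunit P4ha2 was 6.79 in the bulge against 8.67 in the hairshaft (3.69-fold), the prolyl 3-hydroxylase family member P3h3 was 4.31 and 5.56 (2.37-fold), and the lysyl hydroxylase Plod1 was 6.73 and 7.85 (2.17-fold). Serpinh1, the collagen chaperone, was 10.11 and 11.03 (1.88-fold), from a probe set of a type that can bind related sequences.

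Genes of sugar chain (glycosaminoglycan) synthesis, hyaluronan synthases included, were also listed after the data were seen. They had a median of 0.00 over 32 genes above the floor, 4 of which were equal on both arrays. Of the 32, 4 were higher in the bulge by 2-fold or more (12.5%, against 11.4% of all genes) and 1 in the hairshaft (3.12%, against 4.91%), so the shares were near those of all genes. The 4 were Xylt2, which adds the first sugar of the chain, at 6.16 and 4.56 (3.04-fold), Papss2, which makes the sulphate donor, at 7.61 and 6.04 (2.97-fold), Dse, the epimerase that forms dermatan sulphate, at 6.82 and 5.44 (2.61-fold), and Csgalnact1, which starts chondroitin chains, at 6.66 and 5.41 (2.38-fold). The 1 on the hairshaft side was the hyaluronan synthase Has3, at 2.59, below the floor, in the bulge against 4.05 in the hairshaft (at least 2.58-fold).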
